A study of Mus musculus with 6 samples.

Results

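Col1a1, Col1a2, Acan and Runx2 are genes of bone and cartilage that both imaging panels of this study held, beside other skeletal genes such as Col2a1 on the smaller panel and Sox9 on both. The set was defined by gene name with earlier results of these data known, and no threshold on a measured value entered it. It holds 4 of the 477 genes of the smaller panel and 4 of the 5050 genes of the larger one, and all 4 were read in each of the 6 sections. Each level below is the sum of a gene's transcripts in segmented cells over all gene counts in the same cells, scaled to 1000000 (CPM). Intervals in parentheses are exact 95% intervals, Poisson for levels and binomial for shares of cells, and cover counting error in that section only.

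Col1a1 and Col1a2 encode the chains of type I collagen, the main fibrous protein of bone, tendon and skin, which fibroblasts and osteoblasts secrete. Acan encodes aggrecan, the large proteoglycan that lets cartilage hold water, and chondrocytes make it under the control of the transcription factor Sox9. Runx2 encodes the transcription factor that osteoblasts require, and it is also active in chondrocytes that mature before bone forms. Outside the skeleton, Runx2 is known from blood cells, among them plasmacytoid dendritic cells and T cells.

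The study used Xenium, which counts single RNA molecules by probes in a tissue section, to place red cell precursors among their neighbors in blood-forming organs of wild-type mice. There was 1 section of 5 µm from a formalin-fixed, paraffin-embedded block for each condition, so no difference between conditions has a replicate and none was tested. The smaller panel was read in E14.5 fetal liver, in femur with its marrow at postnatal day 8 (P8), in an untreated adult spleen and in the spleen of an adult mouse given phenylhydrazine (PHZ, a drug that destroys red cells) at 40 mg/kg into the peritoneum 2 times a day for 2 days. The larger panel was read in E13.5 fetal liver and in bone marrow of an 89-week-old mouse, whose marrow had been separated from the bone in thick frozen slices before embedding. The P8 femur kept its bone, whereas the separation step limits what the old marrow section can show of bone cells. Both adult spleens came from mice 2 months old, with 3 months also given for the untreated one.

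The sections held between 5285 cells (E13.5 liver) and 143810 cells (89-week marrow), with a median of 60 counts per cell in the 89-week marrow and up to 190 in the E13.5 liver. Each of the 4 genes had 8 probe sets on the smaller panel, but 1 (Col1a1) or 2 on the larger one, so levels were compared within a panel. The E14.5 liver and the P8 femur shared a slide, as did both spleens, and the larger panel was run later with other cell outlines. Panel, run and outline cannot be told apart there. Cells of the smaller panel were expanded nuclei, which can take in transcripts of a neighbor, and a cell could pass several marker lists at a time. In the E14.5 liver, 96.7% of cells passed the erythroid list. In the P8 femur, 53.9% of cells that carried an erythroid signature without Elane or Ctsg had at least 1 Col1a1 count and 2.09% had an Acan count, and these shares are the background for cell types that should lack these genes.

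The promoters are shown because members were read in overlapping cells of the femur, so that a reader can set them side by side with the letters that Runx proteins bind. Promoter windows of RefSeq (GRCm38.p6), from 250 bases before to 50 bases after the gene's start, were found for 3 of the 4 genes. They lie at chr6:4505368-4505667 (Col1a2, plus strand), chr7:79052976-79053275 (Acan, plus strand) and chr17:44814578-44814877 (Runx2, minus strand). Capitals mark ACCACA, a form of the core letters that Runx proteins bind, searched on both strands (TGTGGT on the other). Other forms were not searched or marked.
Col1a2: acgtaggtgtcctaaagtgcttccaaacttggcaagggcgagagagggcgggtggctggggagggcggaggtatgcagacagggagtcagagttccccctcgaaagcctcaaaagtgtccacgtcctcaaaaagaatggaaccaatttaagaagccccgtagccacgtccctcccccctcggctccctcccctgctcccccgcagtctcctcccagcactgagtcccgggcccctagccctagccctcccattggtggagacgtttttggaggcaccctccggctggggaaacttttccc
Acan: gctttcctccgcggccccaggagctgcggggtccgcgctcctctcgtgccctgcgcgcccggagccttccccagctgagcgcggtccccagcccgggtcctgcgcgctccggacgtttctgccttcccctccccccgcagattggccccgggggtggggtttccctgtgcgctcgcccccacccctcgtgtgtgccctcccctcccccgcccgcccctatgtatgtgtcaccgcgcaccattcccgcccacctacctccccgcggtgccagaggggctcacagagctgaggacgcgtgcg
Runx2: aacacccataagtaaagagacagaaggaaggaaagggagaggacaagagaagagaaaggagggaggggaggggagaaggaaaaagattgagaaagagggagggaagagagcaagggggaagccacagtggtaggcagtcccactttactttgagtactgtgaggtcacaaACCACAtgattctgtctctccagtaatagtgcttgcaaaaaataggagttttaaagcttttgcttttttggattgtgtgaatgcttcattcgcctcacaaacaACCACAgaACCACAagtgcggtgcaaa
The Runx2 window held ACCACA 3 times, and the Col1a2 and Acan windows did not hold it. Of 32851 promoter windows of this length, 16.8% held it at least 1 time and 0.183% at least 3 times. CCAAT, read on the other strand as ATTGG, stood in the Col1a2 window 2 times and in the Acan window 1 time, against 37.4% of all windows with it, and TATAAA, read on the other strand as TTTATA, was in none of the 3 windows, against 13.6% of all. G and C made up 61% of the Col1a2, 74% of the Acan and 45.3% of the Runx2 window, with a median of 52.7% over all windows. These are matches of letters and not sites of binding.

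The type I collagen genes were among the most abundant transcripts of the P8 femur. Col1a1 ranked 3 and Col1a2 ranked 4 of the 477 genes by counts, Acan ranked 20 and Runx2 ranked 107. Col1a1 stood at 44308 CPM (44146 to 44471) and in 64.3% of cells in the femur, at 4368 CPM in the E14.5 liver (17.3% of cells), at 7525 CPM in the PHZ-treated spleen (32.5%) and at 2508 CPM in the untreated spleen (14.3%). Col1a2 stood at 36070 CPM in the femur (64.4% of cells), 6390 CPM in the PHZ-treated spleen (28.8%), 5206 CPM in the untreated spleen (24.4%) and 4663 CPM in the E14.5 liver (24.0%). Femur came first for both collagens, and the liver changed place with the untreated spleen between them.

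Acan was high in the femur only, among the 6 sections. It reached 13894 CPM and 17.4% of cells there, against 29.0 CPM in the E14.5 liver (0.499% of cells), 28.0 CPM in the untreated spleen (0.264%) and 25.02 CPM in the PHZ-treated spleen (0.30%). The intervals of these 3 levels overlap (26.7 to 31.4, 24.9 to 31.4 and 22.2 to 28.1 CPM), and their counts of 607, 290 and 286 were 5.78, 3.77 and 3.76 times that of the highest of 20 negative control probes in the same section. Runx2 followed another order, with 1857 CPM in the femur (12.8% of cells), 1318 CPM in the untreated spleen (9.01%), 339.9 CPM in the PHZ-treated spleen (3.48%) and 120.0 CPM in the E14.5 liver (1.53%). The untreated spleen thus stood nearest to the femur for Runx2.

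On the larger panel, the collagens were low in the old marrow. Col1a1 stood at 963 CPM in the E13.5 liver (10.4% of cells) and at 181 CPM in the 89-week marrow (0.728%), and Col1a2 at 1906 CPM (15.4%) and 563 CPM (3.04%). Runx2 ran the other way, with 13.0 CPM from 18 counts in the E13.5 liver and 236 CPM from 3083 counts in the 89-week marrow. Acan had 3 counts in the E13.5 liver and 34 in the 89-week marrow, where the highest control probe had 18, so its level there lies near that of control probes.

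**Figure D1:**
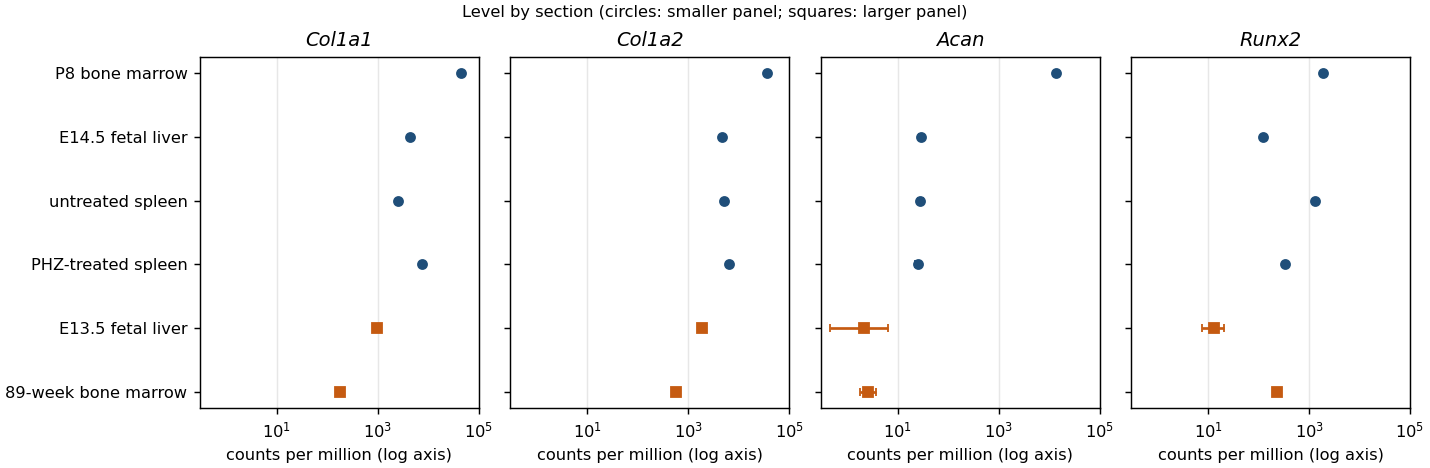
Level of each gene in each section, in CPM on a log axis, with bars for exact 95% Poisson intervals that are mostly hidden by the points (circles, 477-gene panel; squares, 5050-gene panel). The P8 femur stands highest for all 4 genes on the smaller panel, and Acan lies at 13894 CPM there against 25.02 to 29.0 CPM in liver and spleen.

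Against the E14.5 liver on the same slide, all 4 genes were higher in the P8 femur. The log2 ratio of CPM was 8.91 (8.79 to 9.02) for Acan, which ranked 2 of 474 genes with at least 100 counts over both sections after Col2a1, the collagen of cartilage, at 9.45. It was 3.95 (3.89 to 4.02) for Runx2, 3.34 (3.33 to 3.35) for Col1a1 and 2.95 (2.94 to 2.96) for Col1a2. The count of 4 of 4 genes at least 2-fold higher stands beside 37.6% of all tested genes, whose median log2 ratio was 0.50. All 4 of the 11 listed cartilage genes that the panel holds (Col2a1, Comp, Ucma and Sox9) were at least 2-fold higher too, with a median of 6.71, as were 8 of 10 genes linked to collagen matrix (median 3.38). Lum and Serpinf1 were the exceptions, at 0.81 and 0.76.

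The balance of the collagen chains differed between sections. There were 1.23 Col1a1 counts for each Col1a2 count in the P8 femur (1.22 to 1.24), 1.18 in the PHZ-treated spleen (1.17 to 1.19), 0.937 in the E14.5 liver (0.928 to 0.945) and 0.482 in the untreated spleen (0.475 to 0.489). On the larger panel the ratio was 0.505 in the E13.5 liver and 0.322 in the 89-week marrow. Since probes differ in yield, the ratio says nothing of protein chains and can only be set against itself on the same panel. Within the femur it was 1.18 in marrow, 1.21 in muscle, 1.23 in fibrous squares, 1.27 in cartilage and 1.37 (1.35 to 1.40) in squares of no zone.

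Much collagen RNA of the femur lay outside any segmented cell. Of all P8 transcripts of the gene at a quality score of at least 20, 46.1% of Col1a1 and 40.7% of Col1a2 were outside cells, against 15.8% of Acan and 7.47% of Runx2. Over all genes, 89.4% of transcripts lay in cells. The outside Col1a1 transcripts were at a median distance of 74.4 µm from the nearest nucleus, and 80.0% of them lay in squares of 50 µm without any cell. The same held for Col1a2, with a median of 73.2 µm and 79.8%. In the other sections of the smaller panel, Col1a1 was outside cells far less often, at 9.88% in the E14.5 liver, 3.37% in the spleen after PHZ and 1.06% without PHZ. Levels in cells therefore leave out a large share of femur collagen, and with all transcripts the log2 ratio of P8 femur over E14.5 liver rose to 3.96 for Col1a1 and 3.49 for Col1a2.

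Transcripts in cells also differed in place. In the femur, 49.5% of the Runx2 transcripts in cells lay over the nucleus, against 24.9% of Col1a1, 26.6% of Col1a2 and 24.6% of Acan transcripts. The few Acan transcripts of liver and spleen did not follow the femur. They lay over the nucleus in 82.9% (E14.5 liver), 84.1% (untreated spleen) and 86.0% (PHZ-treated spleen) of cases, where negative control probes stood at 49.2%, 53.1% and 50.6%.

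To place the genes in the femur, each square of 50 µm was named by the class of most of its classed cells, from lists that hold none of the 4 genes. Cartilage was read from Col2a1, Comp, Ucma and Sox9, muscle from Ttn, Myoz1, Actn3, Tnnc1, Pygm, Trdn and Pvalb, fibrous tissue from Lum, Dpt, Aspn, Pi16, Mfap5, Ccdc80 and Pcolce2, and marrow from erythroid and granulocyte genes. There were 702 cartilage squares with 5973 cells, 209 muscle squares with 3519 cells, 391 fibrous squares with 5935 cells and 935 marrow squares with 35412 cells, while 1755 cells lay in squares of no zone. Genes of bone itself, such as Bglap, Alpl and Ibsp, were not on this panel (0 of 12 listed), so osteoblasts could not be separated from other fibrous cells.

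**Figure D2:**
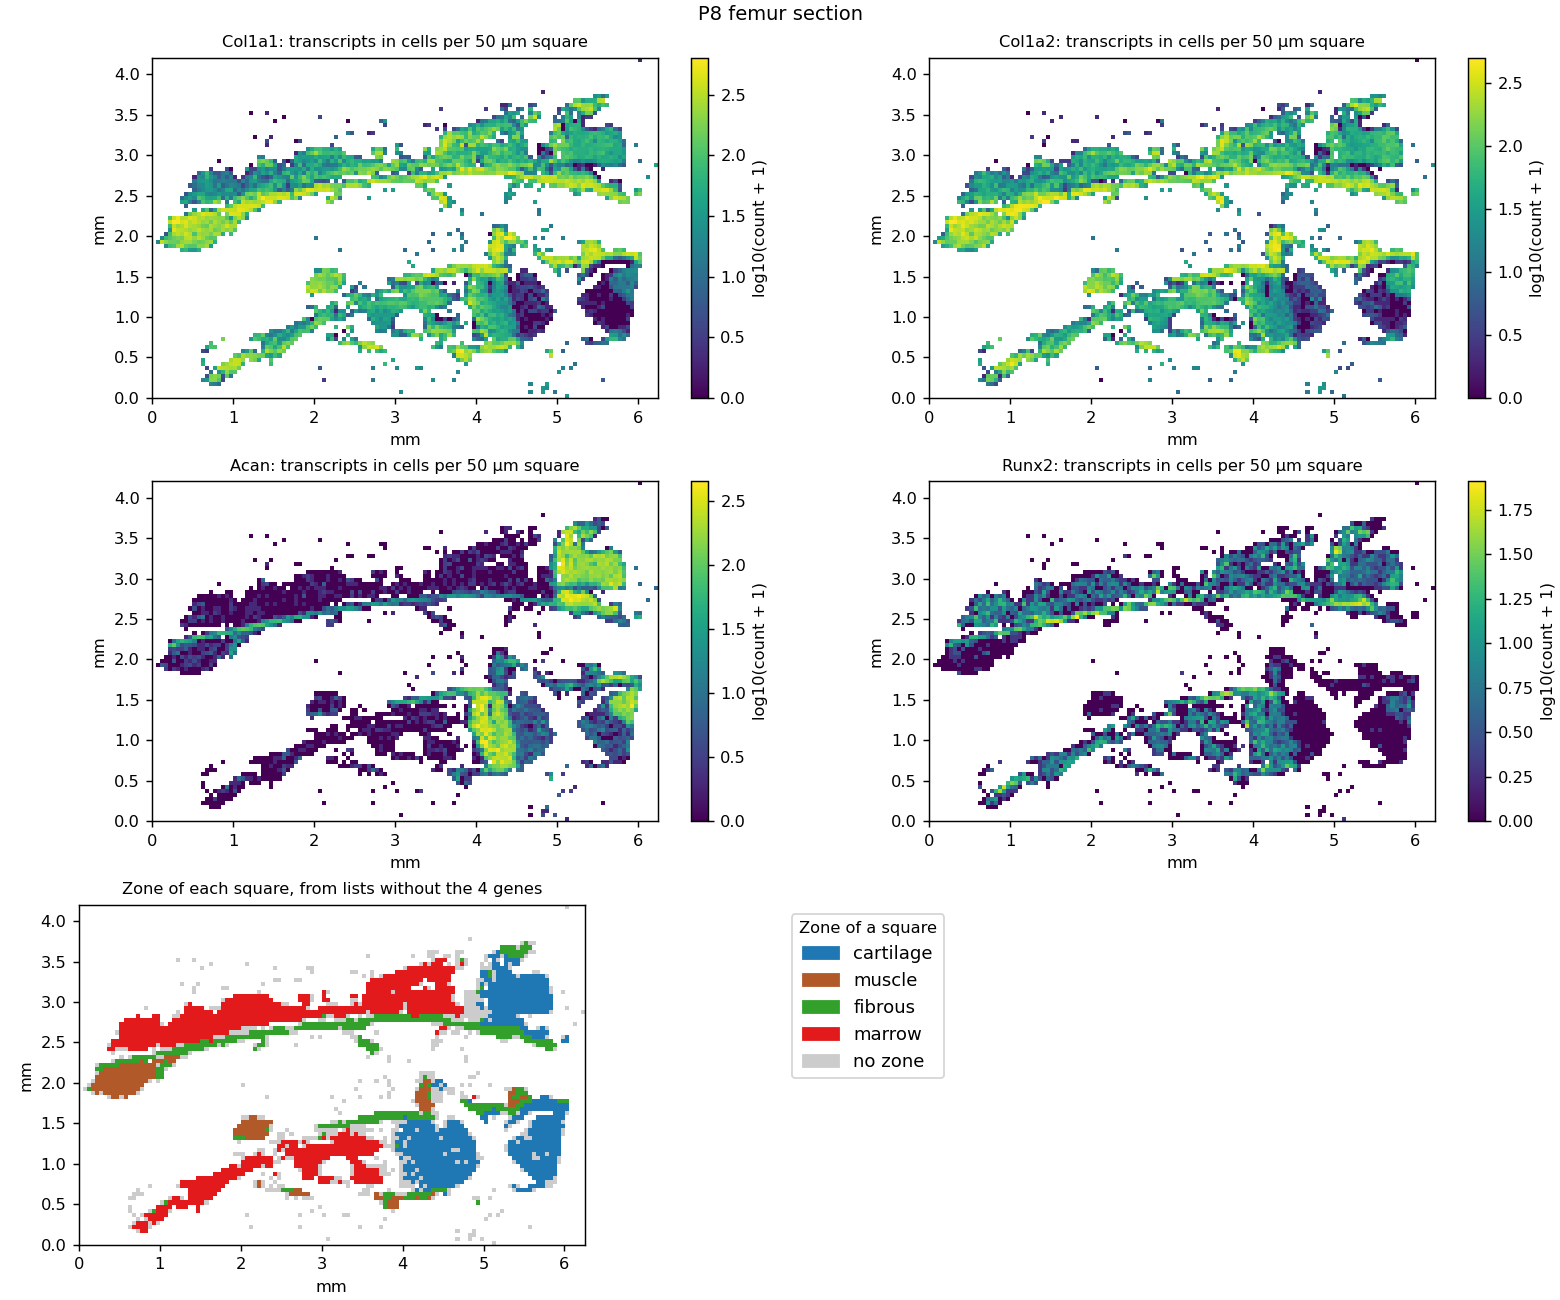
P8 femur section in squares of 50 µm, with axes in mm; the colour gives the log10 of a gene's count in cells plus 1, and the last panel gives the zone of each square. Acan fills the cartilage blocks, both collagens trace the fibrous strips and the muscle, and Runx2 follows the strip along the shaft and the edge of the cartilage.

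Acan marked cartilage. Its level was 141268 CPM (140236 to 142305) in cartilage squares, 14116 CPM in fibrous squares, 1172 CPM in muscle and 119 CPM in marrow (109 to 129), and cartilage held 80.1% of its counts. The log2 ratio of cartilage over marrow was 10.22 (10.09 to 10.35), rank 2 of 430 tested genes after Comp (10.31), a cartilage matrix protein that helped to set the zone. In the same comparison 20% of tested genes were at least 2-fold higher and 56.0% at least 2-fold lower. Acan was found in 74.2% of cells of cartilage squares and in 1.33% of cells of marrow squares. That last share was under the 2.09% of erythroid-list cells without Elane or Ctsg. Of those 25070 cells, 23380 lay in marrow squares more than 100 µm from cartilage and fibrous squares, so the shares are not independent.

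The cartilage was not uniform. Of its cells, 34.2% had under 20 counts in all, against 0.500% in marrow, and their median was 6 counts. Acan was seen in 37.2% of these 2045 cells and in 93.5% of the 3928 cells with at least 20 counts, at 78737 and 143088 CPM. Runx2 was seen in 1.17% of the sparse cells (1739 CPM from 25 counts) and in 34.1% of the others (5096 CPM). In the sparse cells Col1a2 counts exceeded Col1a1 counts, with a ratio of 0.818 (0.717 to 0.933) against 1.28 (1.26 to 1.30) in the other cartilage cells. Low counts thus went with lower levels of Acan and Runx2, and the part of RNA quality in this was not tested.

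Type I collagen was highest in fibrous squares among the named zones. Col1a1 reached 121071 CPM there (95.2% of cells), 85102 CPM in muscle (98.4%), 69496 CPM in cartilage (63.1%) and 17628 CPM in marrow (55.4%). Col1a2 ran in the same order, from 98762 through 70065 and 54555 to 14923 CPM. Squares of no zone were higher still, at 153519 CPM of Col1a1 and 111780 CPM of Col1a2. The log2 ratio of fibrous over marrow was 2.78 (2.77 to 2.79) for Col1a1 and 2.73 (2.71 to 2.74) for Col1a2, beside 31.4% of 440 tested genes at least 2-fold higher and 40.9% at least 2-fold lower. All 10 genes linked to collagen matrix were at least 2-fold higher there (median 5.28), but Lum, Aspn, Mfap5 and Dpt helped to set the zone. Of those that did not, Bgn, a proteoglycan that binds collagen, was at 3.93, Serpinf1, which encodes a secreted factor, at 4.61 and Mfap4, a protein of elastic fibres, at 6.08. Cartilage genes moved with them, since all 4 of that list that were tested were at least 2-fold higher in fibrous than in marrow squares (median 4.33, beside -0.48 over all tested genes). Of all cells in fibrous squares, whatever their own class, 56.9% had Acan. Pcolce2, 1 of the genes that set the fibrous zone, is also among those most like Acan (r = 0.815). The part of cartilage transcripts in the fibrous levels was not tested.

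Runx2 was shared between fibrous tissue and cartilage. It stood at 5332 CPM in fibrous squares (35.2% of cells), 5001 CPM in cartilage (22.9%), 989 CPM in marrow (8.15%) and 284 CPM in muscle (3.69%), and 3594 CPM in squares of no zone. With 67.3% of the cells, marrow held 36.2% of all Runx2 counts, as much as fibrous tissue (36.4%) and more than cartilage (21.2%). The log2 ratio of cartilage over marrow was 2.34 (2.27 to 2.41). It turned to -0.36 when transcripts per mm2 of zone replaced CPM, a scaling that lowered the ratio of every gene by 2.69. Fibrous over marrow gave 2.43 (2.37 to 2.49).

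**Figure D3:**
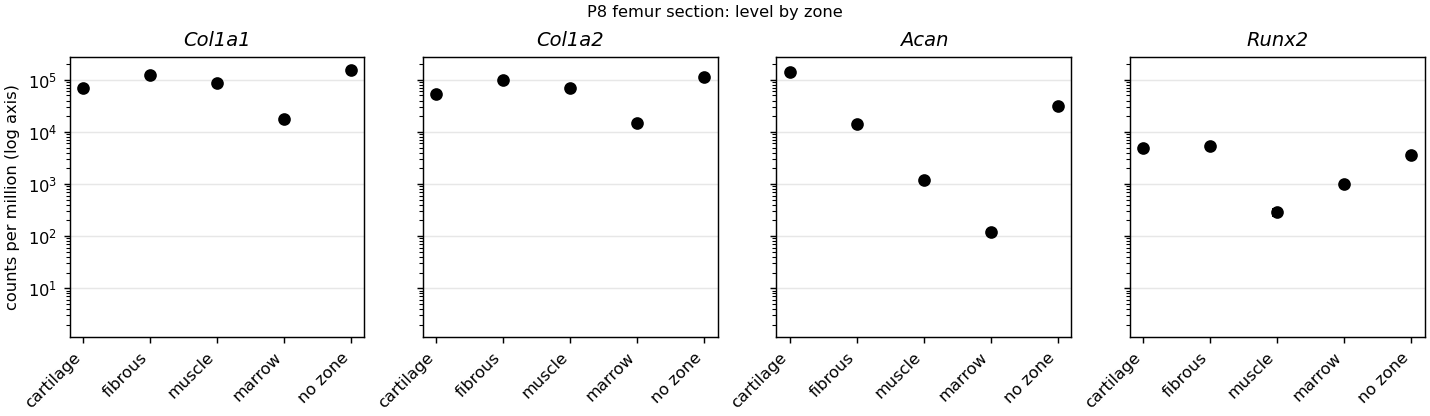
Level of each gene by zone of the P8 femur, in CPM on a log axis, with exact 95% Poisson intervals that the points mostly hide. Acan spans from 119 CPM in marrow to 141268 CPM in cartilage, and Runx2 is high in cartilage and fibrous squares and lowest in muscle (284 CPM).

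Outside the cartilage, Runx2 was highest in the cells nearest to it. Among cells outside cartilage squares, it stood at 6106 CPM (5670 to 6567) within 50 µm of the centre of the nearest cartilage square, 4088 CPM at 50 to 100 µm, 1222 CPM at 100 to 150 µm and 1293 CPM at 150 to 200 µm. From there it rose again, to 1895 CPM at 200 to 300 µm and 2122 CPM at 300 to 400 µm, and then fell to 1357 CPM beyond 600 µm. Acan declined from 56930 CPM within 50 µm to 2280 CPM at 300 to 400 µm. Col1a1 kept to between 95785 and 123503 CPM out to 300 µm and was 34473 CPM beyond 600 µm. The log2 ratio of cells within 100 µm over cells beyond 400 µm was 1.82 (1.74 to 1.90) for Runx2 and 1.78 (1.76 to 1.79) for Col1a1, beside 25% of 444 tested genes at least 2-fold higher and 39.9% at least 2-fold lower. Few of the near cells were of marrow squares, since 7 cells of such squares in all lay within 200 µm of cartilage, so nearness and zone cannot be told apart.

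Inside the cartilage, Runx2 fell with distance from the marrow beyond 300 µm. It stood at 7042 CPM (6451 to 7672) in the 290 cells of cartilage squares at 300 to 400 µm from a marrow square. It stood at 5548 CPM in the 1379 cells at 400 to 600 µm and 3946 CPM (3707 to 4198) in the 4136 cells beyond 600 µm. The shares of cells with Runx2 were 60.0%, 32.3% and 16.7%, while the median counts per cell were 203.5, 70 and 44, so depth fell along with them. Nearer the marrow it had no steady course. The 155 cells at 200 to 300 µm, with a median of 82 counts, held Runx2 at 5862 CPM (4864 to 7004) and Acan at 51933 CPM. Closer still there were 9 cells at 150 to 200 µm with 27 Runx2 counts (17964 CPM, 11838 to 26137) and 4 cells at 50 to 100 µm with 0, too few for a trend. Over the outer 3 bins Acan took another course, at 134043, 164641 and 137443 CPM. Among the cartilage genes, Sox9, the regulator of Acan, rose outward from 6059 through 24684 to 27622 CPM, Ucma, a matrix protein of resting cartilage, from 1145 through 6858 to 34854 CPM, and Col2a1, the main collagen of cartilage, from 127163 through 189086 to 250903 CPM. Comp, a matrix protein that binds collagen, did not rise steadily, at 97702, 131208 and 63597 CPM.

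In marrow squares, Runx2 and collagen rose toward fibrous tissue. Runx2 stood at 5661 CPM (4944 to 6453) and in 37.9% of the 269 cells of marrow squares within 50 µm of the centre of a fibrous square. It stood at 2204 CPM at 50 to 100 µm, 1197 CPM at 100 to 150 µm and 856 CPM at 150 to 200 µm. Deeper in the marrow it stayed between 739.7 and 895 CPM out to 600 µm, and was 2374 CPM in the 345 cells beyond. Col1a1 fell from 90075 CPM within 50 µm to 13246 CPM at 150 to 200 µm. A marrow square is named by most of its classed cells and can also hold cells of other classes. Neither that mix nor transcripts of neighbors taken into a cell's outline were tested as a part of this.

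Over the whole femur section, each of the 6 pairs of members was read together in more cells than the product of the single shares gives. That product takes no account of zone, and the part of neighbors' transcripts was not tested. Cells with both Col1a1 and Col1a2 made up 52.6% (52.1 to 53.0) of all, where the product is 41.4%, a log2 ratio of 0.34. Cells with both Acan and Runx2 made up 5.89% (5.69 to 6.09), against a product of 2.24%, a log2 ratio of 1.40. The more frequent gene of a pair caps this ratio, at 0.63 for the collagens and 2.52 for Acan with Runx2, so pairs cannot be ranked by it. Of Col1a1 cells 81.8% had Col1a2, and of Acan cells 33.8% had Runx2. Of Runx2 cells 45.9% had Acan and 84.0% had Col1a1, beside 17.4% and 64.3% of all cells. The log2 ratio was 0.39 for Runx2 with Col1a1 and with Col1a2, 0.41 for Acan with Col1a1 and 0.40 for Acan with Col1a2, all with caps of 0.63 or 0.64. With cells of at least 50 counts thinned to 50 each and shallower cells left out, it was 1.64 for Acan with Runx2 and 0.51 for the collagens. The cap moves with the single shares and was not computed after thinning, so these rises are not read as stronger co-detection. That left out 7585 of 52594 cells, of which 2832 were among the 5973 of cartilage squares.

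Zones differed in the room above the product. In cartilage squares, where 74.2% of cells had Acan, 95.8% of the Runx2 cells had Acan as well, and the log2 ratio was 0.37 with a cap of 0.43. In fibrous squares, where 56.9% of cells had Acan, 73.5% of the Runx2 cells had it, a log2 ratio of 0.37 with a cap of 0.81. In marrow squares 2.74% of the Runx2 cells had Acan, a log2 ratio of 1.04 from 79 cells with a cap of 3.62. Col1a1 with Runx2 gave 0.55 in cartilage, 0.37 in marrow and -0.02 in fibrous squares, where 95.2% of cells had Col1a1. Col1a2 with Runx2 gave -0.02 in fibrous squares too, and Acan gave 0.01 with each collagen. The intervals of these 4 fibrous values crossed 0, under caps of 0.07 (Col1a1) and 0.09 (Col1a2). In muscle squares Runx2 gave -0.04 with Col1a1 and -0.06 with Col1a2, also with intervals across 0. In the other sections, the ratio of the collagen pair was 1.51 (cap 2.06) in the E14.5 liver, 1.41 (cap 2.03) in the untreated spleen, 1.04 (cap 1.62) in the spleen after PHZ, 2.33 (cap 2.70) in the E13.5 liver and 3.90 (cap 5.04) in the 89-week marrow, so sections cannot be ranked by it either. Of Col1a1 cells, 68.1%, 64.9%, 59.0%, 77.2% and 45.4% had Col1a2 in the same order. In the 89-week marrow, Col1a1 and Runx2 shared 120 cells, a log2 ratio of 2.64 (cap 5.77).

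The genes whose pattern was most like each member were named by Pearson's r of log2(counts per 10000 + 1) over 714 squares of 100 µm of the femur with at least 500 counts. The squares share a section and their depth, so r is a description. For Col1a1 they were Col1a2 (0.951), Serpinf1 (0.777), Bgn (0.686), Ccdc80 (0.655) and Pdgfra (0.643), and for Col1a2 they were Col1a1 (0.951), Serpinf1 (0.779), Bgn (0.773), Ccdc80 (0.682) and Ptn (0.666). For Acan they were Comp (0.906), Col2a1 (0.870), Sox9 (0.839), Pcolce2 (0.815) and Ecrg4 (0.770). Runx2 had no close partner, with Scin (0.491), Nupr1 (0.462), Acan (0.454), Atp6v0d2 (0.441) and Hpgd (0.435). Atp6v0d2 encodes a subunit of the proton pump by which osteoclasts dissolve bone.

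Cells with at least 3 Atp6v0d2 counts, the 1 osteoclast gene of the gate that the panel holds, carried more Runx2 than the cells of any other marker list in the femur. Runx2 stood at 7191 CPM (6687 to 7723) and in 57.0% of these 463 cells. By zone it was 11640 CPM in the 144 such cells of fibrous squares and 4449.8 CPM in the 262 of marrow squares, against 5332 and 989 CPM in all cells of those zones. Osteoclasts and osteoblasts both work at the surface of bone, and the part of transcripts from neighbors was not tested.

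Runx2 was also read in cells with at least 1 count of Elane or Ctsg, proteases of early granules, called granulocyte cells here. In the E14.5 liver 113468 cells passed the erythroid list, 104248 of them without Elane or Ctsg. Most of the 9808 granulocyte cells thus passed it too. After PHZ these numbers were 56816, 53959 and 4202. In both, the contrast is largely between erythroid-list cells with and without Elane or Ctsg. A single count was all that 4902 of the 9808 cells had, and 1086 of 1430 in the untreated spleen. In the E14.5 liver, 7.85% (7.33 to 8.40) of 9808 such cells had Runx2, against 0.909% (0.853 to 0.969) of 104248 cells with at least 3 counts of the erythroid list and no Elane or Ctsg, with median depths of 187 and 167 counts. The log2 ratio of the shares was 3.11 (2.97 to 3.25), an 8.63-fold difference. The comparison cells lacked Elane and Ctsg, but the rest of the early granulocyte list (Elane, Ctsg, Mpo and Prtn3, 3 of them on the panel) was not excluded. In the liver, Runx2 was in 1050 cells of that list, against 770 Elane or Ctsg cells, 948 comparison cells and 73 of all others. Some comparison cells with Runx2 were thus of that list, and 0.909% is no pure erythroid baseline. In the P8 femur the shares were 14.6% (13.9 to 15.3) of 9002 cells and 6.34% (6.04 to 6.65) of 25070 cells, with depths of 130 and 114, a log2 ratio of 1.20 (1.10 to 1.31). In CPM, Runx2 was 2.28-fold higher in the granulocyte cells of the femur, beside 7.29% of 425 tested genes at least 2-fold higher and 0.471% at least 2-fold lower. It was 7.62-fold higher in the E14.5 liver, beside 11% of 471 genes higher and 2.76% lower. It ranked 25 in the femur and 15 in the liver.

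In the femur, cartilage genes moved with the same contrast. Col2a1, Comp, Ucma and Sox9 were all at least 2-fold higher in the Elane or Ctsg cells (median log2 ratio 1.57, against 0.19 over all tested genes), and Acan was 2.80-fold higher. The part of transcripts from nearby cartilage was not tested over the whole section. In the E14.5 liver, 0 of those 4 genes passed 2-fold and Acan was 1.04-fold higher. Among the femur cells in marrow squares more than 100 µm from cartilage and fibrous squares, 12.6% (11.8 to 13.3) of Elane or Ctsg cells and 5.70% (5.40 to 6.0) of erythroid-list cells had Runx2. The log2 ratio there was 1.14 (1.02 to 1.26), close to that of the whole section. By zone, Runx2 was seen in 13.6% of the 8504 Elane or Ctsg cells of marrow squares, 39.1% of the 197 in fibrous squares and 58.7% of the 63 in cartilage squares.

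Runx2 rose with the amount of Elane and Ctsg in the E14.5 liver. Its level was 233 CPM in cells with 1 count, 319 CPM with 2, 764 CPM with 3 to 9 and 1675 CPM (1518 to 1844) with 10 or more, where 26.9% of 1135 cells had it. In the P8 femur the level was between 1502 and 1594 CPM up to 9 counts and 2292 CPM (2059 to 2544) from 10 counts on, with Runx2 in 29.8% of 853 cells. In the PHZ-treated spleen it went from 286 to 975 CPM, by way of 199 CPM at 2 counts. The untreated spleen and the 89-week marrow showed no steady rise. In the untreated spleen the level was 825, 829, 1495 and 920 CPM over the same bins, the last from 40 cells with 8 Runx2 counts (397 to 1812 CPM). In the 89-week marrow, the share of cells with Runx2 rose from 2.17% to 5.55%, but the level stayed between 191 and 251 CPM and the median depth rose from 83 to 263 counts, so no rise was read from the share.

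**Figure D4:**
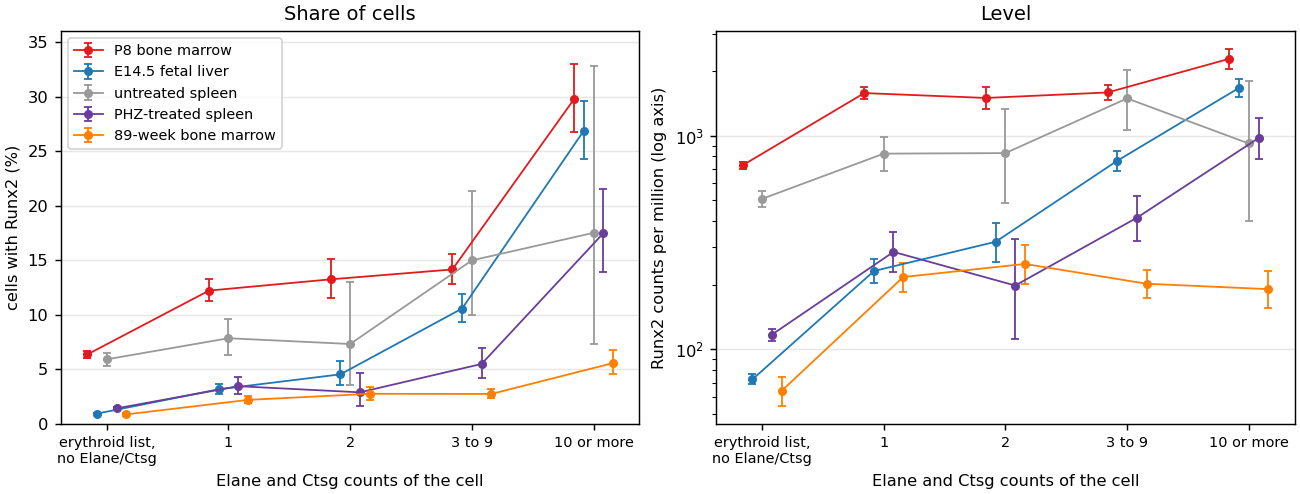
Runx2 in cells grouped by their summed Elane and Ctsg counts, beside cells of the erythroid list with neither, as the share of cells with Runx2 in percent (left) and as CPM on a log axis (right), with exact 95% intervals. The level rises from 72.4 CPM in erythroid-list cells to 1675 CPM at 10 or more counts in the E14.5 liver and is level between 191 and 251 CPM in Elane or Ctsg cells of the 89-week marrow.

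Across all other sections the granulocyte share was above the erythroid one. It was 5.24% of 4202 cells against 1.39% of 53959 in the PHZ-treated spleen (beside 29.0% of 393 tested genes at least 2-fold higher and 0.254% lower in CPM), 8.88% of 1430 against 5.89% of 6163 in the untreated spleen (19.9% of 267 genes higher and 10.1% lower) and 2.79% of 17397 against 0.836% of 16261 in the 89-week marrow (24.6% of 2756 genes higher and 9.58% lower). In the E13.5 liver it was 3 of 53 cells against 4 of 2591, too few for a level. In CPM after PHZ, Runx2 was 3.42-fold higher in the granulocyte cells, most of them also of the erythroid list, than in erythroid-list cells without Elane or Ctsg. It was 3.32-fold higher in the 89-week marrow, where the panel held 2 of the 5 erythroid genes. In the untreated spleen it was 1.82-fold higher (1.52 to 2.16), under the 2-fold line. At 3 or more counts of Elane or Ctsg, the log2 ratio of shares there was 1.39 (0.82 to 1.92), from 207 cells. By the same gate the ratio was 2.64 after PHZ and 2.02 in the 89-week marrow. Set against all cells of the section in place of erythroid ones, the Elane or Ctsg cells were higher in the E14.5 liver (551 against 120.0 CPM) and in the PHZ-treated spleen (400.4 against 340 CPM). They were lower in the P8 femur (1658 against 1857 CPM), the untreated spleen (920 against 1318 CPM) and the 89-week marrow (212 against 236 CPM). Collagen-linked matrix genes were also at least 2-fold higher in the Elane or Ctsg cells than in erythroid ones, 8 of 9 tested after PHZ (median 1.67, beside 0.51 over all tested genes) and 4 of 6 in the untreated spleen (median 1.57, beside 0.39). The part of neighbors' transcripts in these differences was not tested.

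Cells of the late neutrophil list (S100a9, Csf3r, Ifitm6, Mmp8, Ly6g and Cxcr2) also carried Runx2. In the E14.5 liver, cells with at least 3 counts of both this list and of Elane and Ctsg stood at 1499 CPM (22.7% of 1651 cells), those with Elane and Ctsg but under 3 counts of the late list at 692 CPM (9.70% of 1815) and those with the late list but no Elane or Ctsg at 894 CPM (11.4% of 1377). In the P8 femur the same groups stood at 1909, 1600.4 and 942 CPM. All cells stood at 120.0 CPM in the liver and 1857 CPM in the femur, so the late list without Elane or Ctsg was above all cells in the liver only. The whole late list stood at 1286 CPM against 1318 CPM of all cells in the untreated spleen and at 468 against 340 CPM after PHZ. Cells of the early granulocyte list, which were 7.25% of the cells of the E14.5 liver, held 60.3% of its Runx2 counts. The lists overlap, and erythroid-list cells, 96.7% of the section, held 92.0%, with 53.4% in those without Elane or Ctsg.

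In the 89-week marrow, Runx2 was highest by share in another blood cell gate. Of 1083 cells with at least 3 counts of the plasmacytoid dendritic list (Siglech, Ccr9 and Irf8, the last of which other myeloid and B cells also express), 40.9% (38.0 to 43.9) had Runx2, at 3835 CPM, and these cells held 21.6% of all Runx2 counts. Of 491 cells with at least 3 counts of the bone list (Bglap, Bglap2, Alpl, Dmp1, Ibsp and Sp7), 21.2% had Runx2, at 1424 CPM. The same bone-list cells had Col1a1 in 55.8% and Col1a2 in 75.4% of cases, at 15504 and 26612 CPM, and held 62.6% of the Col1a1 and 34.6% of the Col1a2 counts of the section. Acan was at 0 counts in them, which allows up to 3. Squares at the border of the tissue held 8.40% of the cells and 39.9% of the Col1a1 counts. Macrophage-list and erythroid-list cells stood at 229.6 and 64.2 CPM of Runx2.

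In the fetal liver, the level of type I collagen was highest in cells of the surface and stromal lists, while most of its counts lay in erythroid-list cells, the bulk of the E14.5 section. Lists overlap, since a cell can pass several. Erythroid-list cells, 96.7% of all, stood at 3162 CPM of Col1a1 and 3719 CPM of Col1a2 and held 70.6% and 77.8% of the counts. The 1209 cells of the mesothelial list (Upk1b and Upk3b, genes of the lining of the organ) had Col1a1 in all cells and Col1a2 in 99.7%, at 79765 and 58139 CPM, and held 22.9% and 15.6% of the counts. Cells of the smooth muscle list stood at 35396 and 31911 CPM, the fibrous list at 31129 and 28833, the stellate list at 29027 and 28132 and the hepatocyte list at 1954 and 2439 CPM. Squares at the border of the tissue held 4.81% of the cells and 31.5% of the Col1a1 counts, at 28210 CPM against 3147 CPM inside. Col1a2 stood at 22853 against 3732 CPM. The borders of the spleens were higher than their insides too, at 8771 against 2362 CPM of Col1a1 without PHZ and 18784 against 6940 CPM after PHZ.

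Collagen was also found in stellate-list and fibrous-list cells of the smaller E13.5 section, but the larger panel holds fewer of the list genes. It holds 2 of 7 fibrous, 3 of 4 stellate and 2 of 5 erythroid genes. Of the fibrous genes only Lum had counts there. The 180 cells of the stellate list held 32.8% of the Col1a1 counts (3895 CPM) and 31.3% of the Col1a2 counts (7362 CPM). The 42 cells of the fibrous list stood at 6004 and 13008 CPM, and erythroid-list cells at 428 and 939 CPM.

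Acan was sparse in the E14.5 liver. It was seen in 586 cells, of which 2 had at least 3 counts. Cells of the erythroid list, 96.7% of the section, held 88.3% of the Acan counts, and Slc4a1, the anion exchanger of red cells, was seen in 93.2% of Acan cells and 97.1% of others. The next genes were chosen after their values were seen, form no list and are given as a description. Epcam, a gene of epithelium, was seen in 8.19% (6.10 to 10.7) of the Acan cells and in 0.740% of other cells, Krt19, a keratin of bile ducts, in 10.4% against 1.80%, Sox9, which is also of the cartilage list, in 7.17% against 1.60% and Muc1, a mucin of epithelium, in 5.63% against 0.420%. Most Acan cells lacked each of them, and the Acan cells were somewhat deeper, with a median of 207.5 against 167 counts. In the untreated spleen, Krt19 was seen in 0.350% of the 286 Acan cells and in 0.343% of others, and Muc1 in 2.10% against 0.802%. Of 222 E14.5 cells of the cartilage list, 11.3% had Acan, at 750 CPM (538 to 1017).

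After PHZ, the members of the spleen moved apart. Col1a1 was 3.0-fold higher in the PHZ-treated spleen, a log2 ratio of 1.59 (1.57 to 1.61), while Col1a2 was 1.23-fold higher (0.30, 0.28 to 0.31). Runx2 was 3.88-fold lower, at -1.96 (-2.01 to -1.90). Acan, at -0.16 (-0.40 to 0.08), did not differ beyond counting error. These values are over all cells, and erythroid-list cells went from 5.91% to 60.1% of them. In cells with neither 3 counts of the erythroid list nor any Elane or Ctsg (100745 without PHZ and 36421 after it) the ratios differed. There Col1a1 was 5.82-fold higher (2.54, 2.52 to 2.56), Col1a2 2.55-fold higher (1.35, 1.33 to 1.37) and Acan 1.85-fold higher (0.89, 0.61 to 1.17), while Runx2 was 1.64-fold lower (-0.71, -0.77 to -0.65) and no longer past 2-fold. Of 469 genes tested in these cells, 21.1% were at least 2-fold higher and 9.38% at least 2-fold lower, and their median was 0.43, so the whole scale differs from that over all cells. Over all cells, of 472 tested genes, 12.9% were at least 2-fold higher and 27.5% at least 2-fold lower, and their median was -0.45. The erythroid list (5 of 5 genes on the panel) went from 7760.4 to 103228 CPM. Counting per cell raised every log2 ratio by 0.34, which moved the median to -0.11 and turned Acan to 0.18. It left Col1a1 and Runx2 past 2-fold over all cells. Of the 10 genes linked to collagen matrix, 0 were at least 2-fold higher and 4 at least 2-fold lower (Lum, Fbln5, Dpt and Htra3, at -1.84, -1.68, -1.54 and -1.28). Outside the erythroid and granulocyte gates 1 was at least 2-fold higher and 0 lower.

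The gain of Col1a1 was seen in every marker list with at least 100 cells in both spleens. It went from 12523 to 39797 CPM in mesothelial-list cells, 10172 to 37754 in the fibrous list, 12188 to 26049 in the stellate list and 9478 to 20688 in the smooth muscle list. It went from 2344 to 14824 CPM in the megakaryocyte list, 1685 to 10124 in the late neutrophil list, 1565 to 4396 in the erythroid list and 1792 to 8535 in the T cell list. In folds, the gain was 2.14 to 3.71 in these 4 stromal and surface lists and 6.32, 6.01, 2.81 and 4.76 in the megakaryocyte, late neutrophil, erythroid and T cell lists, blood cells that should make no collagen. The part of neighbors' transcripts within the cell outlines was not tested. Col1a2 was unequal. It stood at 22319 and 22253 CPM in the stellate list and 16862 and 17780 in the smooth muscle list, and went from 17962 to 31617 CPM in the fibrous list and 14148 to 27877 in the mesothelial list. It was 2.44-fold higher in the megakaryocyte list, 2.24-fold in the T cell list and 2.19-fold in the late neutrophil list, and at 3530 and 3417 CPM in the erythroid list.

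Runx2 stood lower after PHZ in every one of those lists, although the interval of the log2 ratio crossed 0 in the mesothelial and osteoclast lists. T cell list cells were 28.1% of all cells without PHZ and 6.49% after it, and the summed level of the list (4 of 4 genes on the panel, none at or under the highest control probe) went from 25630 to 4300 CPM. They held 52.5% and 24.2% of the Runx2 counts. Within them Runx2 went from 2280.1 CPM (16.0% of cells) to 1439 CPM (12.1%), 1.58-fold lower. Acan, at 32.2 and 58.0 CPM in them, was 1.81-fold higher (0.85, 0.27 to 1.40). It was 2.45-fold lower in the megakaryocyte list (-1.29, -2.46 to -0.19). Its interval crossed 0 in the erythroid, macrophage, late neutrophil, endothelial, stellate, fibrous and smooth muscle lists, so Acan had no common direction over the lists. Outside the T cell list Runx2 went from 899 to 273 CPM, a log2 ratio of -1.72 (-1.78 to -1.66), but those cells take in the expanded erythroid cells. In all cells outside the erythroid and granulocyte gates, T cells included, Runx2 was 1.64-fold lower. In erythroid-list cells it went from 531 to 127 CPM. Fewer T cells, less Runx2 in each and fewer T cell transcripts in other outlines cannot be told apart in these totals.

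**Figure D5:**
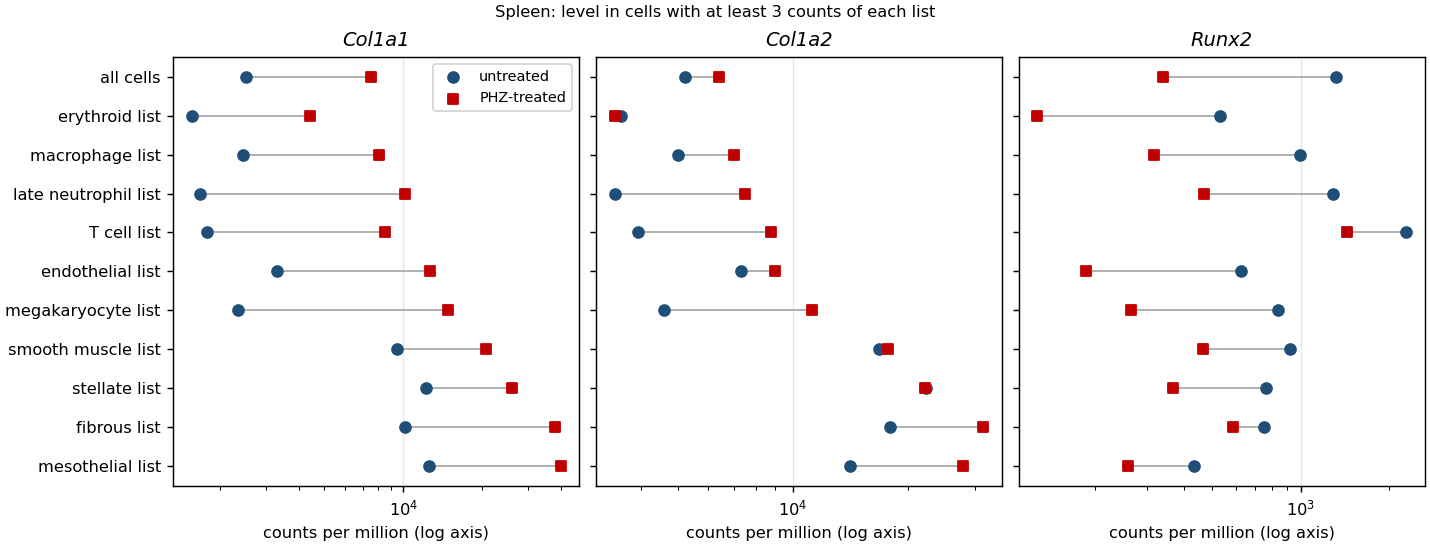
Col1a1, Col1a2 and Runx2 in cells with at least 3 counts of each marker list in the untreated spleen (circles) and the PHZ-treated spleen (squares), in CPM on a log axis, 1 section each. Col1a1 lies to the right after PHZ in every list, Runx2 to the left, and Col1a2 is in nearly the same place in the erythroid, smooth muscle and stellate lists.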

How the data were processed

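The authors deposited, for each section, raw counts for every gene in every outlined cell, made by the instrument software (Xenium analysis software 1.7.1.0 for the smaller panel, 3.1.0.4 for the larger), cell positions and, for the smaller panel, single transcripts with a quality score per transcript. The paper's methods name Space Ranger, whereas the run files carry the name Xenium Onboard Analysis. No genome build entered the counts used here. Cells were used as deposited, with no filter and no removal of doublets. Sums per section, zone or gate were scaled to CPM with Python 3.11.15, numpy 2.4.6, scipy 1.17.1 and pandas 2.3.3. Cells were gated at 3 counts of a marker list, and squares of 50 µm needed 3 classed cells. Genes with at least 100 counts over both groups entered the background of a 2-fold difference. The fold rule, its interval and the zone rule were checked on simulated data, and thinning on the E13.5 section. Gates, co-detection, distances and transcripts of neighbors were not simulated. The members and the lists were chosen with earlier results of these data known. The named genes were the members, the genes of the lists and 5 genes per member by likeness. With 1 section per condition no p-value was computed. A count of 0 allows up to 3 counts. Alternatives covered square size, scaling, thinning to 50 counts, nuclear transcripts and count minimums.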

Additional observations from a re-analysis of the deposited data

How the results depend on the processing

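Of 72 alternative values for 20 results, 69 kept their direction, 22 of them within the counting interval of the reported value, and 3 reversed. All values are log2 ratios. Squares of 100 µm gave 10.01 for Acan and 2.17 for Runx2 (cartilage over marrow), 2.63 for Col1a1 and 2.59 for Col1a2 (fibrous over marrow), and 2.34 for Runx2 and 1.69 for Col1a1 (near over far from cartilage). Transcripts per mm2 gave 7.53 for Acan, 1.62 for Col1a1 and 1.56 for Col1a2, and reversed Runx2 to -0.36. Within 50 µm of cartilage, Runx2 was 2.15 and Col1a1 1.69. In marrow squares alone Col1a1 was 2.38, and Runx2 had no value, with 0 counts in 3 near cells. For co-detection of Col1a1 with Col1a2, Acan with Runx2, Col1a1 with Runx2 and Acan with Col1a1 in turn, at least 2 counts gave 0.78, 2.00, 0.80 and 0.81, thinning of cells of at least 50 counts 0.51, 1.64, 0.47 and 0.73, nuclear transcripts 0.58, 1.68, 0.47 and 0.53, and cells of at least 20 counts, a choice made after seeing the data, 0.30, 1.46, 0.34 and 0.46. Caps of these co-detection ratios differ by setting and were not computed, so a rise or fall is not read as a change of co-detection. At least 3 Elane or Ctsg counts gave 1.50 in the P8 femur and 4.13 in the E14.5 liver for Runx2. Counting per cell gave 1.92 for Col1a1, 0.63 for Col1a2 and -1.62 for Runx2 in the spleens and reversed Acan to 0.18, and for P8 over E14.5 gave 2.80, 2.41, 8.36 and 3.41 for Col1a1, Col1a2, Acan and Runx2, lowering every gene by 0.54. Only cells outside the erythroid and granulocyte gates, a choice made after seeing the data, gave 2.54, 1.35 and -0.71 (Col1a1, Col1a2, Runx2) in the spleens and reversed Acan to 0.89. Leaving Hbb-bt out of the totals gave 1.64, 0.35 and -1.90 (Col1a1, Col1a2, Runx2) in the spleens and 3.31 and 2.92 (Col1a1, Col1a2) for P8 over E14.5. Transcripts outside cells raised Col1a1 to 3.96 and Col1a2 to 3.49 for P8 over E14.5. No paired analysis was possible because each condition had 1 section. The intervals cover counting error alone, a spread between mice is unknown, and shares of cells with low counts, such as Acan in liver and spleen, depend on depth. Cell outlines and neighbors' transcripts limit every gate.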
